A study of Mus musculus with 8 samples.

Results

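The comparison described here set keratinocytes that carry a human integrin α3 subunit (α3 line) against their α3-deficient parent (null line), both without the α9 subunit. MK546 is a keratinocyte line made from newborn α3-null mice and immortalized with SV40 large T antigen, an oncoprotein that binds p53 and the retinoblastoma protein. The α3 line was made from it by stable transfection of human α3. Of the 8 arrays of the series, 4 belong to this comparison, 2 of the α3 line and 2 of the null line, and all 23332 transcript clusters were compared. A transcript cluster is a set of array probes summarised to 1 value, and 14860 genes could be named from clusters annotated with a single gene. The other 4 arrays are of MK546 cells with human α9 from stable retroviral transduction, with human α3 (α3α9 line) or without it (α9 line). They share the estimate of spread and give the test of whether an α3 change differs when α9 is present.

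All lines share the α3-null origin, large T and the medium, so the null line is no normal keratinocyte. They were grown at 33 °C and 8% CO2 on denatured rat tail collagen at 30 µg per ml, in medium with 4% calcium-depleted serum, 0.05 mM calcium chloride, 10 units per ml interferon-γ, 0.4 µg per ml hydrocortisone, 10 ng per ml EGF and 5 µg per ml insulin. Whether the α3 line is 1 clone or a pool of transfected cells is not given in the sources used here. Each line is a single line, so a difference between lines cannot be told apart from a difference between their histories. The titles mark the arrays of both compared lines as re-analysis. They are called biological replicates, and separate cultures are not stated, so a p-value here reflects only how these arrays vary, possibly for technical reasons.

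Integrins are matrix receptors made of an α and a β subunit. α3β1 binds the laminins of the basement membrane, associates with tetraspanins in the cell membrane, and signals through focal adhesion and Src kinases. In epidermis it is known for the organisation of the basement membrane, for keratinocyte migration in wounds, and for control of secreted proteases, matrix proteins and angiogenic signals.

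Array medians of the deposited intensities ran from 82.8 to 127 over the 8 arrays, and each array was scaled to their mean of 102.5. Array values below are these scaled intensities, and a change is the difference of mean log2(scaled intensity + 16), α3 line minus null line, with its SE. The added 16 shrinks the change of dim genes. Adjusted p-values come from limma over all 23332 clusters, and a gene rose or fell where that p was under 0.05. Replicate arrays correlated at 0.986 to 0.991 across clusters, and the residual SD on the log2 scale was 0.215 in the α3 line and 0.217 in the null line. With 2 arrays a line, their number limits the precision. Of the keratinocyte markers, Krt5 gave 12985 and 13959 in the α3 line, against 14532 and 15224 in the null line, and Krt14 gave 10556 and 11639 in the α3 line, against 12882 and 13108 in the null line. The 8 markers summed to 39113 and 40644 in the α3 line, against 47063 and 48222 in the null line. All 8 had changes below 0, and 2 of them, Col17a1 and Trp63, fell. Among all genes 3.73% fell. The markers of fibroblasts, melanocytes, leukocytes and endothelial cells stayed low, with sums per list between 341 and 1008 on the same 4 arrays. The highest single marker among them was the macrophage gene Cd68 at 580.2.

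In all, 652 clusters (2.79%) were higher and 707 (3.03%) lower in the α3 line, 1359 (5.82%) together, over a median change of all clusters of -0.08. Among the 14860 genes the shares were 3.51% higher, 3.73% lower and 7.24% together. The counts of each gene list below are to be read against these shares. At an unadjusted p under 0.05 in limma, 5387 of 23332 clusters differed in either direction. List counts at that level are to be read against this number, which is over clusters and is not split by direction. Lists with calls but under 7.24% were interstitial matrix (2.70%), integrated stress (3.33%), chemokines and identity factors (3.45% each) and integrins (5.00%). The others were antigen presentation (5.26%), Notch (5.56%), FGF (5.88%), and DNA replication and glucocorticoid-responsive genes (6.25% each). Rises were larger than falls: 300 clusters rose over 2-fold and 58 over 4-fold, against 158 and 31 that fell by as much. The median size of a call was 0.96 for rises and 0.77 for falls. The arrays of the lines did not overlap for any call, but they did not overlap for 58.6% of all clusters either. The split depended on the scale of the arrays. On the deposited intensities 221 clusters were higher and 82 lower, and after quantile normalization 1046 and 877. Without α3 replicate 1 or 2 the counts were 186 and 104, or 230 and 137, and without null replicate 1 or 2 they were 210 and 129, or 245 and 100. A call is said to hold where it passed with each of these 4 arrays left out in turn, as 85 of the 180 calls picked by the naming rule did. For calls that did not hold the highest adjusted p without 1 of the 4 arrays is given. On the deposited intensities 96 of the 180 passed.

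**Figure D1:**
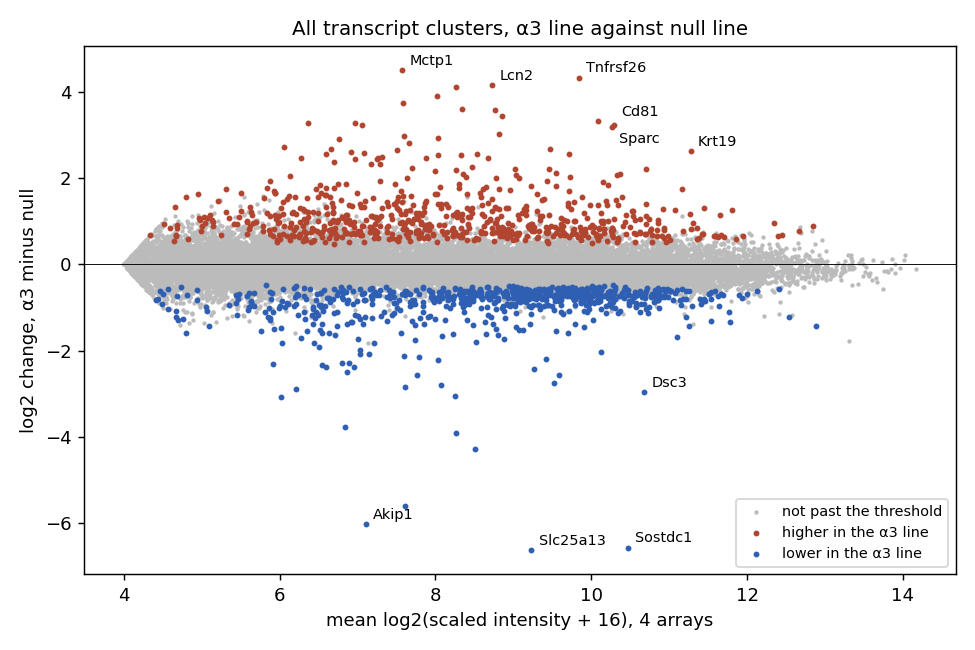
Change of each transcript cluster (log2, α3 line minus null line) against its mean log2(scaled intensity + 16) over the 4 arrays. Red points are the 652 clusters higher in the α3 line, blue points the 707 lower in it and grey points those that did not pass. The largest falls reach below -6, and the largest rises stay under 5.

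On the scale with the added 16, changes over 16-fold were found in 5 clusters lower and 4 higher. The genes below include some with smaller changes. Slc25a13, the mitochondrial aspartate and glutamate carrier of the liver and other tissues, gave 46.6 and 42.2 in the α3 line, against 5568 and 6388 in the null line. That was a change of -6.63 ± 0.15, adjusted p = 5.6e-06. Sostdc1, a secreted antagonist of BMP and Wnt signals, gave 112 and 148 in the α3 line, against 13030.4 and 14643 in the null line (-6.58 ± 0.15, adjusted p = 5.6e-06). Akip1, a protein that binds protein kinase A, gave 1.27 and 0.858 in the α3 line, against 984 and 1231 in the null line (-6.03 ± 0.16, adjusted p = 9.3e-06). Both α3 arrays lay near or under the added 16 for Akip1 and for Pi15, a secreted peptidase inhibitor (11.8 and 12.1 in the α3 line, against 1257 and 1423 in the null line). Pacs1, a sorting protein of the trans-Golgi network, fell to 66.8 and 66.9 in the α3 line, against 1574 and 1619.6 in the null line. Slc50a1, a sugar transporter, gave 70.3 and 57.5 in the α3 line, against 1131 and 1231 in the null line. Its change of -3.91 ± 0.22 was short of 16-fold on that scale. All 4 α3 and null arrays put these genes in separate ranges, and the calls of all 6 held.

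Among the rises, Mctp1, a calcium-binding membrane protein of the endoplasmic reticulum, gave 935 and 852 in the α3 line, against 27.9 and 20.2 in the null line (4.51 ± 0.15, adjusted p = 2.3e-05). Gatm, which makes the creatine precursor guanidinoacetate, gave 1284 and 971 in the α3 line, against 69.5 and 86.4 in the null line (3.60 ± 0.17, adjusted p = 1.3e-04). Glipr2, a Golgi-associated protein, gave 1025 and 959.6 in the α3 line, against 43.5 and 58.7 in the null line (3.92 ± 0.18, adjusted p = 1.3e-04). Neither α3 array came near a null array for any of these 3. Susd4, a regulator of complement, changed by 3.23 ± 0.13 and Mcam, a cell adhesion molecule of the immunoglobulin family, by 2.68 ± 0.14. Mgmt, the enzyme that removes methyl groups from guanine in DNA, changed by 2.81 ± 0.18, and the potassium channel Kcnj15 by 2.68 ± 0.14. Acap1, a GTPase-activating protein of Arf6, rose by 3.03 ± 0.15 and Pon3, a lactonase, by 2.58 ± 0.13. Tnfrsf26 (4.33), Speer3 (4.11), Plscr2 (3.75), Defb41 (3.29), Mcpt8 (2.97) and Gimap9 (2.62) also rose. Probes may be shared between these 6 and their close relatives, which leaves their values uncertain. All rises in this paragraph held.

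Other falls outside the pathway lists were those of Rcbtb2 (-3.09), Fam149a (-2.89), Gpnmb (-2.84), Pgpep1 (-2.38), Selenom (-2.34), Tmem159 (-2.30), Popdc3 (-2.28), Mapk12 (-2.28), Niban1 (-2.18), Npepl1 (-2.15), Rps4l (-2.12) and Zfp358 (-2.09), and all held. Gpnmb, a glycoprotein of melanosomes and lysosomes that keratinocytes can also make, gave 50.9 and 63.6 in the α3 line, against 462 and 555 in the null line. Mapk12, the gamma form of p38 kinase, gave 34.9 and 34.4 in the α3 line, against 211 and 249 in the null line. Niban1, a stress-induced protein, gave 296 and 317 in the α3 line, against 1330.3 and 1576 in the null line. Rps4l is a relative of a ribosomal protein gene and may share its probes. Both α3 arrays lay under the added 16 for Rcbtb2 (6.39 and 6.25), Fam149a (11.9 and 10.4) and Tmem159 (11.5 and 10.7). The sizes of these falls depend on the added 16.

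Lower calls were spread unevenly over the chromosomes. Genes were placed on chromosomes by the RefSeq table of assembly GRCm38.p6, which gave the chromosome and the gene order, and 8703 genes with a mean above the common median were taken as expressed. On chromosome 10, 105 of 418 expressed genes (25.1%) were lower in the α3 line and 8 higher, against 375 of 8285 (4.53%) lower on the other chromosomes. The median change there was -0.41, and against the null mean it was -0.38 and -0.44 on the 2 α3 arrays. Over all expressed genes it was -0.09. Below 0 lay 88.8% of the chromosome 10 genes, against 60.9% of all expressed genes. Chromosomes 8 and 19 followed, with medians of -0.27 and -0.22 and 12.4% and 11.2% of genes lower. In the lines with α9 the medians for chromosomes 10, 8 and 19 were -0.15, -0.04 and 0.10, over a median of 0.06. Chromosome 10 held 21.9% of all lower calls among expressed genes. With every chromosome centred on its own median, a setting chosen after seeing the data, 599 clusters were higher and 576 lower, and 160 of the 180 named calls stayed past the threshold. The 20 that did not are named beside their lists. No DNA of these lines was analysed here, so a shift of chromosomes in copy number and one in transcripts alone cannot be told apart.

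**Figure D2:**
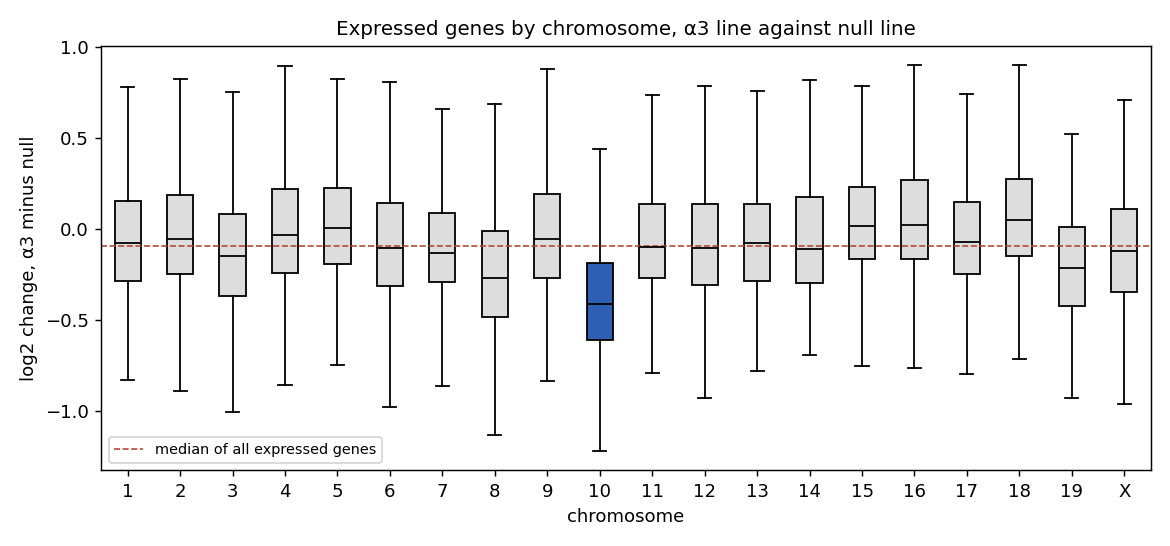
Change of expressed genes (log2, α3 line minus null line) by chromosome. Boxes span the quartiles with the median as a line, whiskers follow the usual box-plot limit, single genes beyond them are not drawn, and the dashed line is the median of all expressed genes. The box of chromosome 10 lies lowest, with a median of -0.41.

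Among the integrin subunits 1 gene passed. The array reads mouse transcripts and does not check the human α3 that was added. Itga3 gave 1232 and 1242 in the α3 line, against 1088 and 1015 in the null line (0.23 ± 0.13, adjusted p = 0.34), a difference that did not pass. Its probes may lie outside the part the null allele lacks, so this signal checks neither line's label. Itgb1, which encodes the β partner of α3, gave 5591 and 5648 in the α3 line, against 8083 and 8173 in the null line (-0.53 ± 0.14, adjusted p = 0.079). The 2 expressed genes before it in gene order, Nrp1 and Pard3, fell by 1.13 and 0.78. The run of 10 expressed genes that ends with it, from Exoc8 to Itgb1, had a median of -0.52. Itga9 gave 46.6 and 41.0 in the α3 line, against 51.2 and 57.3 in the null line. Of 20 measured subunits 1 rose and 0 fell, 3 and 2 at an unadjusted p under 0.05 in limma. The 1 that rose was Itga2, the α subunit of the collagen receptor α2β1, with 353 and 327 in the α3 line, against 95.7 and 111 in the null line (1.58 ± 0.20, adjusted p = 0.0063). Without α3 replicate 1 or null replicate 1 it did not pass, with adjusted p up to 0.062. The subunits of the other laminin receptor, Itga6 and Itgb4, gave changes of -0.51 ± 0.14 and -0.15 ± 0.16 (adjusted p = 0.086 and 0.61).

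Secreted matrix showed a few large rises among genes that mostly did not pass. Sparc, a collagen-binding glycoprotein, was 9.51 times higher by mean intensity, with 3884 and 3549.6 in the α3 line, against 379 and 403 in the null line (3.20 ± 0.16, adjusted p = 1.4e-04). Fbln2, which links laminin and fibrillin networks in the basement membrane, gave 2122 and 2249.7 in the α3 line, against 568 and 566 in the null line (1.92 ± 0.20, adjusted p = 0.0029). Npnt, the nephronectin ligand of integrin α8β1, gave 301 and 277 in the α3 line, against 97.2 and 89.5 in the null line (1.48 ± 0.12, adjusted p = 9.7e-04). These were the 3 of 23 basement membrane genes that rose, and 0 fell. At an unadjusted p under 0.05, 5 of the list were higher and 2 lower, and its median was -0.11. The collagen IV chain Col4a1 gave 397 and 435 in the α3 line, against 245 and 228 in the null line, and its change of 0.77 ± 0.21 had an adjusted p of 0.08. The perlecan core protein Hspg2 gave a change of -0.07 ± 0.14 (adjusted p = 0.81). Of 37 interstitial matrix genes 1 fell and 0 rose, 5 and 1 at an unadjusted p under 0.05. It was Thbs2, an inhibitor of angiogenesis, with 83.9 and 88.0 in the α3 line, against 637 and 764 in the null line (-2.81 ± 0.26, adjusted p = 0.0016). The calls of Sparc, Fbln2, Npnt and Thbs2 held.

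Of 12 laminin and hemidesmosome genes 1 rose and 1 fell. Ntn4, a netrin that binds laminins, changed by 0.71 ± 0.15 and Col17a1, the transmembrane collagen of hemidesmosomes, by -0.81 ± 0.18, with 2038 and 2438 in the α3 line, against 3852 and 3976 in the null line. Both lost their call whichever of the 4 arrays was left out (adjusted p up to 0.21 and 0.25), and Col17a1 also with chromosomes centred (adjusted p = 0.099). Of 28 heparan sulfate and proteoglycan genes 3 rose and 0 fell, and 0 were lower at an unadjusted p under 0.05 in limma either. Both extracellular sulfatases rose, Sulf1 with 1141 and 1132 in the α3 line, against 518 and 579 in the null line and Sulf2 with 875 and 858 in the α3 line, against 337 and 354 in the null line, changes of 1.03 ± 0.12 and 1.29 ± 0.12 that held. Hpse, the heparanase, changed by 0.97 ± 0.14, and without null replicate 1 or either α3 array its adjusted p reached 0.1. Hyal1, which degrades hyaluronan, was the 1 of 13 hyaluronan genes that rose (0.86 ± 0.11). Its adjusted p without 1 of the 4 arrays was up to 0.069.

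Some metalloproteinases and coagulation regulators were higher. Of 32 metalloproteinase and Timp genes 4 rose and 0 fell, 10 and 3 at an unadjusted p under 0.05, with a list median of 0.03. Mmp3, the stromelysin that cleaves proteoglycans and activates other proteases, gave 348 and 347 in the α3 line, against 47.8 and 50.6 in the null line (2.48 ± 0.21, adjusted p = 0.0011), a call that held. Mmp13, an interstitial collagenase, gave 122 and 101 in the α3 line, against 23.3 and 30.0 in the null line (1.58 ± 0.22, adjusted p = 0.011). The inhibitor Timp1 gave 1752 and 1533 in the α3 line, against 803 and 1022 in the null line (0.84 ± 0.16), and Mmp11, stromelysin-3, changed by 0.57 ± 0.13. Mmp13, Timp1 and Mmp11 lost their calls without any single one of the 4 arrays, with adjusted p up to 0.089, 0.18 and 0.22. Rises in the list numbered 1 and 1 without α3 replicates 1 and 2, and 1 and 1 without null replicates 1 and 2. The gelatinase Mmp9, often tied to α3β1 in keratinocytes, gave 116 and 80.8 in the α3 line, against 62.8 and 74.2 in the null line (0.42 ± 0.17, adjusted p = 0.19), and the membrane-bound Mmp14 a change of 0.01 ± 0.23 (adjusted p = 0.99).

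The upstream windows of the 2 metalloproteinase genes with the largest rises are shown because both hold an AP-1-type motif, TGANTCA, which reads the same on both strands. Each is the 250 bases before the RefSeq gene start in GRCm38.p6, with the motif in capitals.
Mmp3 (chr9:7445572-7445821, plus strand): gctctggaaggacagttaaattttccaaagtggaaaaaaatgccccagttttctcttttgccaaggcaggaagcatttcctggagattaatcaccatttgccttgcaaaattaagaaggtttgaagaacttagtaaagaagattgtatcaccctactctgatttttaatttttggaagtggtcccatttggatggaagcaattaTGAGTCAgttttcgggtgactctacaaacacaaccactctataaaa
Mmp13 (chr9:7272264-7272513, plus strand): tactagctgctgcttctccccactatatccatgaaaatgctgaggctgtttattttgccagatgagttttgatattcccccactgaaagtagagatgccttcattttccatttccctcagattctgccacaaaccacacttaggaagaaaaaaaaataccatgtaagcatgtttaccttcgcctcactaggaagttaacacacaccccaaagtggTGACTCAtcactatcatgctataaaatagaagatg
The motif starts at position -46 in Mmp3 and at -35 in Mmp13, counted back from the gene start. Of the 4 metalloproteinase genes that rose these 2 hold it, and so do 7.82% of all 27025 genes with a window of these 250 bases. The Mmp13 window also holds 1 match of the interferon-type motif (GAAA, any 2 bases, GAAA, on either strand), apart from the capitals. A match is a run of letters in a window and is not shown to be a site.

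Among 15 genes of plasminogen activation and coagulation 4 rose and 1 fell, 33.3% together, against 7.24% of all genes. Tfpi, the inhibitor of the tissue factor pathway, gave 166 and 143 in the α3 line, against 10.1 and 9.77 in the null line (2.71 ± 0.12, adjusted p = 9.8e-05), and F3, tissue factor itself, gave 359.9 and 319.7 in the α3 line, against 723 and 795 in the null line (-1.12 ± 0.24, adjusted p = 0.043). Thrombomodulin (Thbd) gave 133 and 140.4 in the α3 line, against 45.4 and 44.2 in the null line and the endothelial protein C receptor (Procr) 1677 and 1494 in the α3 line, against 867 and 971 in the null line. They changed by 1.33 ± 0.13 and 0.78 ± 0.12, and both act in the protein C anticoagulant pathway. Serpinb2, an inhibitor of plasminogen activators, gave 8394 and 8683 in the α3 line, against 4842 and 5065 in the null line (0.78 ± 0.11). Urokinase (Plau) gave 6115 and 5644 in the α3 line, against 4161 and 4272 in the null line (0.48 ± 0.13, adjusted p = 0.082), and its receptor Plaur changed by -0.04 ± 0.17 (adjusted p = 0.91). Tfpi and Thbd held. Serpinb2, Procr and F3 lost their calls whichever of the 4 arrays was left out (adjusted p up to 0.084, 0.13 and 0.19), and F3 also with chromosomes centred (adjusted p = 0.071).

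**Figure D3:**
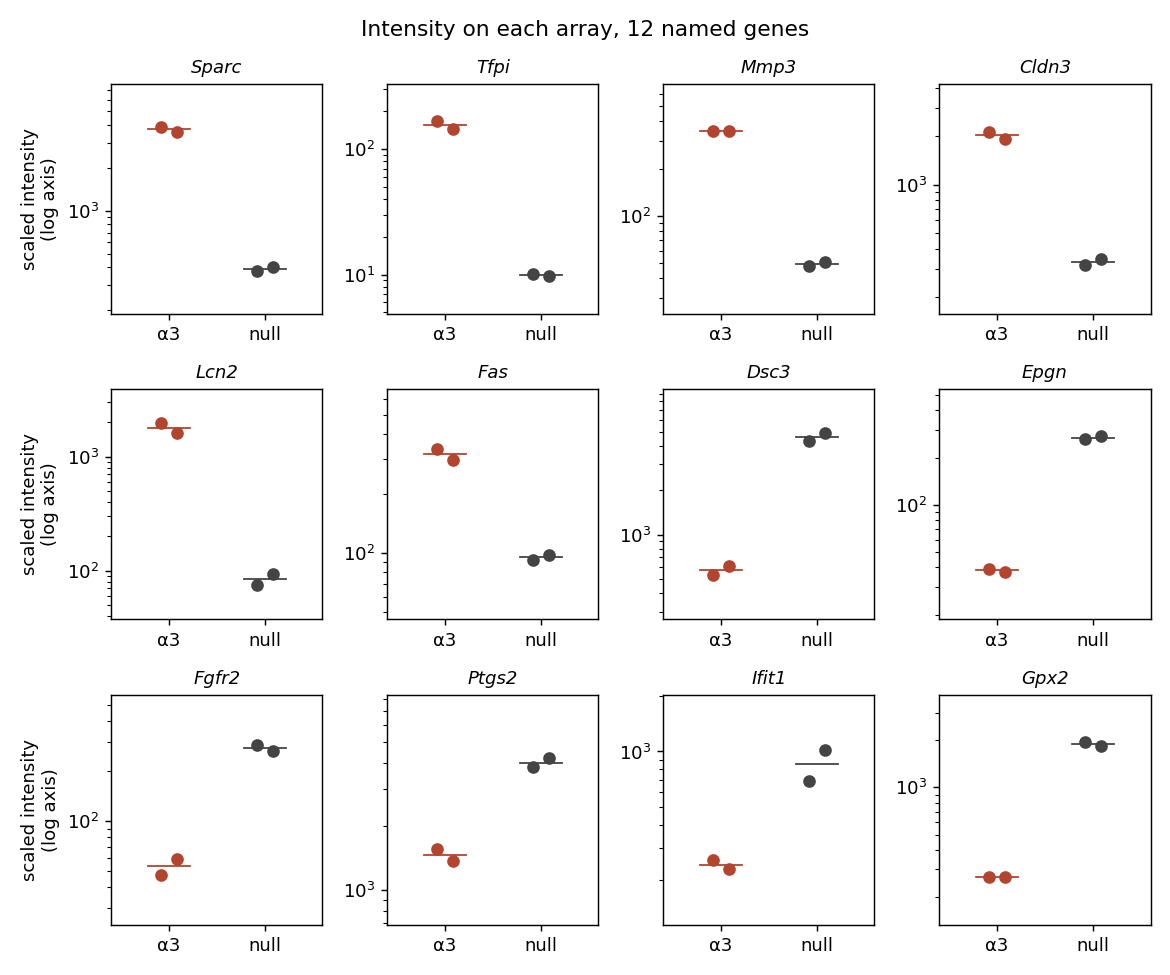
Scaled intensity on each array (points, log axis, each panel with its own range) of 12 genes with large changes, α3 line left and null line right in each panel, with lines at the means of 2 arrays. Sparc, Tfpi, Mmp3, Cldn3, Lcn2 and Fas lie higher on both α3 arrays, and Dsc3, Epgn, Fgfr2, Ptgs2, Ifit1 and Gpx2 lie lower on both.

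In the membrane, tetraspanins and junction proteins changed in both directions. Cd81, a tetraspanin that associates with integrins, gave 3888 and 3715 in the α3 line, against 354 and 435 in the null line (3.22 ± 0.18, adjusted p = 1.9e-04). Tspan15, which directs the protease ADAM10 to its substrates, gave 87.6 and 91.6 in the α3 line, against 827 and 888 in the null line (-3.05 ± 0.15, adjusted p = 1.3e-04). Of 21 tetraspanins 3 rose and 1 fell. Tspan1 and Tspan4 rose by 1.22 ± 0.15 and 0.75 ± 0.17. Tspan1 did not pass without α3 replicate 1 (adjusted p = 0.057), and Tspan4 was lost whichever array was left out (adjusted p up to 0.24). Cd81 and Tspan15 held.

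Dsc3, a desmosomal cadherin of basal and spinous keratinocytes, had 533 and 616 in the α3 line, against 4304 and 4847 in the null line (-2.96 ± 0.15, adjusted p = 1.6e-04). All 12 desmosome genes lay below 0, against 60.9% of all expressed genes, and their median was -0.40. Of these 12 genes 2 fell and 0 rose, 8 and 0 at an unadjusted p under 0.05. The second was the plaque protein Pkp2 (-0.98 ± 0.16, up to adjusted p = 0.13 without 1 array). The other plaque and cadherin genes did not pass: Pkp1 changed by -0.69 ± 0.20 (adjusted p = 0.1) and Dsg3 by -0.72 ± 0.18 (adjusted p = 0.064). Dsc3 held.

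Of 38 adherens, tight and gap junction genes 5 rose and 2 fell. Cldn3, a sealing claudin, was 6.17 times higher, with 2125 and 1932 in the α3 line, against 315 and 343 in the null line (2.57 ± 0.15, adjusted p = 2.2e-04). Nectin3 gave 735 and 584 in the α3 line, against 233 and 233 in the null line and its family member Nectin4 242 and 229 in the α3 line, against 143 and 147 in the null line, changes of 1.43 ± 0.15 and 0.64 ± 0.11. Cdh2, N-cadherin, gave 800.4 and 708 in the α3 line, against 301 and 290.0 in the null line (1.30 ± 0.13, adjusted p = 0.0022), while E-cadherin (Cdh1) gave 1339.9 and 1239 in the α3 line, against 1952 and 1934 in the null line (-0.59 ± 0.23, adjusted p = 0.18) and P-cadherin (Cdh3) a change of -0.56 ± 0.14 (adjusted p = 0.07). Cgnl1, a tight junction protein, rose by 0.77 ± 0.15. Cdh6 fell by 0.85 and Pard3, a polarity protein, by 0.78 on the log2 scale. Cldn3, Nectin3 and Cdh2 held. Rises in this list numbered 3 and 3 without α3 replicates 1 and 2, and 3 and 3 without null replicates 1 and 2, and without 1 array Nectin4, Cgnl1, Cdh6 and Pard3 reached adjusted p of 0.14, 0.15, 0.14 and 0.15. Cgnl1 was also lost with chromosomes centred (adjusted p = 0.051).

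Of 45 focal adhesion and actin linkage genes 3 rose and 2 fell. Arhgdib, a regulator of small GTPases best known in blood cells, gave 1463 and 1569 in the α3 line, against 110.1 and 141 in the null line (3.44 ± 0.21, adjusted p = 2.7e-04). Fermt2, kindlin-2, which helps talin to activate integrins, gave 120.2 and 119 in the α3 line, against 40.8 and 46.7 in the null line (1.18 ± 0.14, adjusted p = 0.0044). Tns1, tensin-1, rose by 0.63 ± 0.14, and the actin-binding Cnn2 and smooth muscle actin Acta2 fell by 0.98 and 0.70. Arhgdib and Fermt2 held. The other 3 were lost whichever array was left out (adjusted p up to 0.21, 0.17 and 0.21) and also with chromosomes centred (adjusted p = 0.069, 0.11 and 0.17). Vinculin (Vcl) changed by -0.65 ± 0.15 (adjusted p = 0.053).

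Growth factor ligands and receptors were mostly lower where they passed. Of 14 EGF family genes 4 fell and 0 rose, 4 and 2 at an unadjusted p under 0.05. Epgn, epigen, a ligand of the EGF receptor, gave 39.2 and 37.5 in the α3 line, against 261 and 272 in the null line (-2.38 ± 0.12, adjusted p = 1.4e-04), a call that held. Nrg1, the ligand of Erbb3 and Erbb4, changed by -0.83 ± 0.13, with 1411 and 1325 in the α3 line, against 2339 and 2566 in the null line. Its receptor Erbb3 and the receptor regulator Lrig3, both on chromosome 10, changed by -0.73 ± 0.15 and -0.79 ± 0.12. Nrg1, Erbb3 and Lrig3 lost their calls whichever array was left out (adjusted p up to 0.1, 0.2 and 0.11), and the last 2 with chromosomes centred (adjusted p = 0.25 and 0.11). The EGF receptor itself (Egfr) gave 571 and 558 in the α3 line, against 593 and 621 in the null line (-0.10 ± 0.14, adjusted p = 0.71), and the ligand Hbegf changed by 0.39 ± 0.14 (adjusted p = 0.15). Of 22 ERK output genes 2 rose and 0 fell, 2 and 6 at an unadjusted p under 0.05. They were the phosphatase Dusp4 (0.94 ± 0.15) and Fos (0.82 ± 0.17), with adjusted p up to 0.11 and 0.21 without 1 of the 4 arrays. Another ERK phosphatase, Dusp6, gave a change of -0.73 ± 0.30 (adjusted p = 0.21).

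Fgfr2, the receptor of keratinocyte growth factor, gave 47.5 and 59.0 in the α3 line, against 289 and 263 in the null line (-2.08 ± 0.13, adjusted p = 3.1e-04) and held. It was the 1 of 17 FGF family genes that passed. Igf2bp3, an RNA-binding protein of fetal tissue and tumours, gave 16.6 and 13.6 in the α3 line, against 381 and 435 in the null line (-3.77 ± 0.13, adjusted p = 3.3e-05) and held, and its α3 arrays lay about the added 16. Igf2r, which clears IGF2, changed by -1.05 ± 0.13, and without α3 replicate 1 or null replicate 2 it did not pass (adjusted p up to 0.062). Grb14, an adaptor that inhibits the insulin receptor, changed by 0.75 ± 0.12 (adjusted p up to 0.13 without 1 array). Those 3 were the calls among 18 insulin and IGF genes. Of 16 Eph receptors and ephrins 0 passed limma's test, and 0 were higher and 2 lower at an unadjusted p under 0.05.

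The TGF-β, BMP and Wnt lists each held a few calls. Tgfbr3, the co-receptor betaglycan, gave 192 and 218 in the α3 line, against 52.3 and 37.6 in the null line (1.87 ± 0.15, adjusted p = 0.001) and held. Tgfbi, a secreted target of TGF-β, gave 110.1 and 122 in the α3 line, against 282 and 340.5 in the null line (-1.31 ± 0.19), Ltbp1, which stores latent TGF-β in matrix, changed by -0.95 ± 0.15, and the activin antagonist Fst by -0.58 ± 0.12. Together these made 1 rise and 3 falls of 28. Of 25 BMP genes 2 fell and 0 rose, 7 and 0 at an unadjusted p under 0.05. They were Sostdc1 and the BMP effector Smad1, with 279.8 and 341 in the α3 line, against 643 and 702 in the null line (-1.08 ± 0.17). Of 42 Wnt genes 4 rose and 2 fell. The ligands Wnt5a, Wnt7b and Wnt9a rose by 1.52 ± 0.19, 1.14 ± 0.17 and 0.81 ± 0.12, with Wnt5a at 101 and 98.6 in the α3 line, against 21.9 and 26.9 in the null line. The receptor Fzd3 rose by 0.65 ± 0.13. Axin2, a feedback target of β-catenin, fell to 45.8 and 45.9 in the α3 line, against 85.6 and 86.7 in the null line (-0.72 ± 0.11), and the transcription factor Tcf7l2 fell by 0.99.

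Of these, Tgfbr3 and Sostdc1 held. Wnt5a did not pass without α3 replicate 1 or null replicate 1 (adjusted p up to 0.055), Tgfbi without either α3 array or null replicate 2 (0.093), Smad1 without α3 replicate 1 or either null array (0.11), and Tcf7l2 without α3 replicate 2 or either null array (0.057). Ltbp1, Fst, Wnt7b, Wnt9a, Fzd3 and Axin2 were lost whichever array was left out, with adjusted p up to 0.12, 0.2, 0.1, 0.11, 0.21 and 0.1. The targets of YAP and TEAD had 2 rises and 0 falls of 17, 3 and 4 at an unadjusted p under 0.05. They were the matricellular Ccn1, with 1294 and 1018 in the α3 line, against 616 and 519 in the null line (adjusted p = 0.023), and the phosphatase Ptpn14 (0.69 ± 0.13), with adjusted p up to 0.15 and 0.19 without 1 array, while Ccn2 changed by -0.37 ± 0.22 (adjusted p = 0.36). In the Notch list 1 of 18 rose, the Notch inhibitor Dlk2 (0.75 ± 0.15), lost whichever array was left out (adjusted p up to 0.2) and with chromosomes centred (0.051).

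Semaphorins, netrins and their receptors had 4 rises and 1 fall of 31. Unc5b, a netrin receptor, was 5.04 times higher, with 504 and 542 in the α3 line, against 101 and 106 in the null line (2.17 ± 0.14, adjusted p = 3.2e-04). It lies on chromosome 10. Sema3e, a repulsive ligand of plexin D1, gave 174 and 178 in the α3 line, against 47.8 and 33.8 in the null line (1.77 ± 0.17), and Sema4f gave 352 and 352 in the α3 line, against 136 and 124 in the null line (1.33 ± 0.11). These 3 held, and the fourth rise was Ntn4. Sema5a fell by 0.95, with adjusted p up to 0.099 without 1 of the 4 arrays.

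Signals to blood vessels changed in both directions. Vegfc, the growth factor of lymphatic endothelium, gave 354 and 326 in the α3 line, against 53.4 and 46.0 in the null line (2.44 ± 0.23, adjusted p = 0.0019). Endothelin-1 (Edn1), a vasoconstrictor peptide, gave 878 and 866 in the α3 line, against 347 and 362 in the null line (1.26 ± 0.11, adjusted p = 0.0016). Nrp1, a co-receptor of VEGF and semaphorins, gave 1110.4 and 1156 in the α3 line, against 2358 and 2658 in the null line (-1.13 ± 0.12, adjusted p = 0.0032), and Vegfd, another ligand of the lymphatic receptor, gave 478 and 419.9 in the α3 line, against 869 and 878 in the null line (-0.94 ± 0.12, adjusted p = 0.0061). The guidance ligand Slit2 changed by -0.67 ± 0.11. In all 2 rose and 3 fell of 26, and Vegfa itself gave 745 and 815 in the α3 line, against 646 and 866 in the null line (0.06 ± 0.18, adjusted p = 0.88). Vegfc, Edn1 and Nrp1 held, but Nrp1 did not pass on the deposited intensities (adjusted p = 0.072). Vegfd did not pass without α3 replicate 2 or either null array (adjusted p up to 0.057), nor Slit2 without any single one of the 4 (adjusted p up to 0.14).

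The list with the largest share of rises was that of antimicrobial and acute-phase proteins, in which 9 of 26 rose and 0 fell, 11 and 1 at an unadjusted p under 0.05. Over all genes 3.51% rose. Lcn2, which binds bacterial siderophores, was 21.1 times higher, with 1951 and 1623 in the α3 line, against 75.3 and 93.8 in the null line (4.16 ± 0.22, adjusted p = 1.6e-04). S100a8, a subunit of the antimicrobial protein calprotectin, gave 3104 and 3785 in the α3 line, against 319.6 and 331 in the null line (3.33 ± 0.36, adjusted p = 0.0033), and its partner S100a9 gave 56.7 and 58.1 in the α3 line, against 32.0 and 33.4 in the null line (0.59 ± 0.16, adjusted p = 0.079). Nos2, the inducible nitric oxide synthase, gave 1434 and 1637 in the α3 line, against 318 and 369 in the null line (2.11 ± 0.22, adjusted p = 0.0027). The acute-phase protein Orm1 gave 2713 and 2569 in the α3 line, against 555 and 677 in the null line (2.08 ± 0.13, adjusted p = 3.2e-04).

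Slpi, a secreted leukocyte protease inhibitor, gave 1697 and 1694 in the α3 line, against 334 and 485 in the null line (2.03 ± 0.28), and Ltf, lactoferrin, gave 161 and 162 in the α3 line, against 34.5 and 38.3 in the null line (1.76 ± 0.12). Saa3, Pglyrp3 and Defb1 rose by 1.41 ± 0.24, 1.27 ± 0.22 and 1.19 ± 0.17. The 9 expressed genes that follow Defb1 in gene order, a run picked for its high median, had a median change of 1.04 and 5 of them rose. Members that did not pass included Camp, the cathelicidin, with 57.8 and 59.9 in the α3 line, against 51.5 and 75.7 in the null line, and the list median was 0.20. Lcn2, S100a8, Nos2, Orm1 and Ltf held. Slpi did not pass without either α3 array or null replicate 1 (adjusted p up to 0.074), Saa3 without α3 replicate 2 or null replicate 2 (0.11), Defb1 without α3 replicate 1 or null replicate 1 (0.087), nor Pglyrp3 without any single one of the 4 (0.14). Rises in the list numbered 6 and 7 without α3 replicates 1 and 2, and 6 and 7 without null replicates 1 and 2, and on the deposited intensities 7.

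Cytokines and feedback genes of NF-κB had 7 rises and 3 falls of 44. Tnip3, an inhibitor of NF-κB signalling, gave 1620.2 and 1383 in the α3 line, against 108 and 112 in the null line (3.59 ± 0.16, adjusted p = 9.3e-05). Il34, a ligand of the CSF1 receptor that keeps Langerhans cells in the epidermis, gave 335 and 313 in the α3 line, against 75.8 and 79.4 in the null line (1.86 ± 0.13, adjusted p = 6.1e-04), and Csf1, the other ligand of that receptor, gave 487 and 429 in the α3 line, against 178 and 199 in the null line (1.21 ± 0.13, adjusted p = 0.003). Csf3, the granulocyte growth factor, gave 944 and 859 in the α3 line, against 318 and 372 in the null line (1.35 ± 0.13). The interleukin-36 genes, listed under older symbols, went opposite ways: Il1f6 gave 391 and 333 in the α3 line, against 43.1 and 60.1 in the null line (2.49 ± 0.35, adjusted p = 0.01) and Il1f8 gave 17.4 and 14.3 in the α3 line, against 36.9 and 49.7 in the null line (-0.89 ± 0.15, adjusted p = 0.02). The interleukin-23 subunit Il23a gave 294 and 218 in the α3 line, against 77.9 and 102 in the null line (1.35 ± 0.18), and Nfkbiz, a nuclear co-regulator of NF-κB, changed by 0.50 ± 0.11. Il1rn, the interleukin-1 receptor antagonist, gave 235 and 278 in the α3 line, against 442 and 632 in the null line, and Tnfsf10, the death ligand TRAIL, gave 22.9 and 27.7 in the α3 line, against 60.5 and 72.8 in the null line. Both fell (adjusted p = 0.025 and 0.013). Csf2 gave 624 and 516 in the α3 line, against 189 and 171 in the null line, and its change of 1.57 ± 0.38 had an adjusted p of 0.058. Interleukin-1α (Il1a) changed by 0.29 ± 0.14 (adjusted p = 0.25).

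Tnip3, Il34, Csf1 and Csf3 held. Il1f6 did not pass without either α3 array or null replicate 1 (adjusted p up to 0.084), Il23a without α3 replicate 1 or null replicate 1 (0.066), Il1f8 and Il1rn without either α3 array or null replicate 2 (0.12 and 0.16), and Tnfsf10 and Nfkbiz without any single one of the 4 (0.11 and 0.21). With chromosomes centred the adjusted p of Nfkbiz was 0.1. Rises in the list numbered 4 and 5 without α3 replicates 1 and 2, and 4 and 6 without null replicates 1 and 2. Of 29 chemokines 1 rose and 0 fell, 3 and 1 at an unadjusted p under 0.05. Ccl25 gave 651 and 533 in the α3 line, against 144 and 156 in the null line (1.87 ± 0.17, adjusted p = 0.0014) and held. It lies in the run from Ctxn1 to Lig4, picked for its high median. The 9 other expressed genes of that run had a median change of 0.97 and 6 of them rose. The neutrophil chemokine Cxcl5 gave 9778 and 9342 in the α3 line, against 5432 and 5660.1 in the null line (0.78 ± 0.21, adjusted p = 0.078). Of 11 complement genes 1 rose, the decay-accelerating factor Cd55, with 1476 and 1305 in the α3 line, against 373 and 387 in the null line (1.83 ± 0.19, adjusted p = 0.003), and it held. Hsd11b1, which makes active glucocorticoid from its inactive form, was the 1 of 16 glucocorticoid-responsive genes that rose, with 1353 and 1316 in the α3 line, against 291 and 389 in the null line (1.94 ± 0.20, adjusted p = 0.0029), and it held.

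Interferon-stimulated genes were the list with the largest share of falls. Interferon-γ was in the medium of every line. Of 28 genes of the type driven by ISGF3, a transcription factor complex that holds Stat2 and Irf9, 14 fell and 0 rose, and 25 lay below 0, with a median of -0.72 against -0.08 over all clusters. At an unadjusted p under 0.05 in limma 17 were lower and 0 higher. Over all genes 3.73% fell, and 60.9% of all expressed genes lay below 0. Ifit2 gave 54.6 and 72.2 in the α3 line, against 244 and 287 in the null line (-1.83 ± 0.15, adjusted p = 9.7e-04), Ifit1 gave 257 and 230.1 in the α3 line, against 692 and 1017 in the null line (-1.72 ± 0.21, adjusted p = 0.0052), and Cmpk2, a mitochondrial nucleotide kinase next to Rsad2 in the genome, gave 146 and 127 in the α3 line, against 447 and 486 in the null line (-1.66 ± 0.12, adjusted p = 6.5e-04). Oas2, a sensor of double-stranded RNA, gave 19.7 and 24.6 in the α3 line, against 68.3 and 81.0 in the null line (-1.25 ± 0.17). Stat2 itself gave 377 and 393 in the α3 line, against 843 and 907 in the null line (-1.15 ± 0.14, adjusted p = 0.0049), and Irf9 1032 and 857 in the α3 line, against 1006 and 1262 in the null line (-0.26 ± 0.15, adjusted p = 0.37). Rsad2 (viperin), Oasl2, Zbp1 and Irf7 changed by -1.01 ± 0.20, -0.98 ± 0.16, -0.89 ± 0.15 and -0.87 ± 0.20, and the list also held falls of Parp14 (-1.13), Dhx58 (-0.96), Dtx3l (-0.76), Ifih1 (-0.76) and Parp9 (-0.63).

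The calls of Ifit2, Ifit1 and Cmpk2 held. Stat2 did not pass without α3 replicate 1 (adjusted p = 0.055), Oas2 without α3 replicate 1 or null replicate 2 (up to 0.084), and Parp14 and Zbp1 without either α3 array or null replicate 2 (up to 0.077 and 0.12). Rsad2, Oasl2, Irf7, Dhx58, Dtx3l, Ifih1 and Parp9 were lost whichever array was left out (up to 0.17, 0.12, 0.23, 0.14, 0.14, 0.22 and 0.22), and Rsad2 and Irf7 also with chromosomes centred (0.055 and 0.068). Falls in the list numbered 3 and 5 without α3 replicates 1 and 2, and 7 and 4 without null replicates 1 and 2. They numbered 3 on the deposited intensities and 13 with chromosomes centred. In gene order the 8 expressed genes that follow Ifit2 and Ifit1 on chromosome 19, a run picked for its low median, had a median change of -0.33 and 4 of them fell, and Stat2 lies on chromosome 10. The members of the Ifit and Oas families have similar sequences and may share probes. Isg15 and several others of the list were not analysed here.

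Of 21 targets typical of interferon-γ 7 fell and 0 rose, 14 and 0 at an unadjusted p under 0.05, with a median of -0.50. Gbp5, a guanylate-binding GTPase, gave 49.9 and 50.1 in the α3 line, against 192 and 312 in the null line (-1.98 ± 0.21, adjusted p = 0.0031) and held. Gbp3, Gbp7, Gvin1 and Irgm1, GTPases of the same defence system, changed by -0.92 ± 0.15, -0.81 ± 0.12, -0.79 ± 0.14 and -0.62 ± 0.11. Cd274, the checkpoint ligand PD-L1, gave 577 and 465 in the α3 line, against 1064 and 1300.4 in the null line (-1.16 ± 0.19), and the receptor kinase Jak2 changed by -0.82 ± 0.12. Falls in this list numbered 1 and 1 without α3 replicates 1 and 2, and 1 and 1 without null replicates 1 and 2, and 1 on the deposited intensities. Cd274, Gbp3, Gbp7, Gvin1, Irgm1 and Jak2 reached adjusted p of 0.12, 0.12, 0.097, 0.14, 0.17 and 0.1 without 1 array, and Jak2 0.059 with chromosomes centred. Irf1, an interferon-induced transcription factor, gave 2524 and 2729.8 in the α3 line, against 3438 and 4003 in the null line (-0.50 ± 0.13, adjusted p = 0.078). Of 19 antigen presentation genes 1 fell and 0 rose, 3 and 0 at an unadjusted p under 0.05. It was the peptidase Erap1 (-0.76 ± 0.12, adjusted p up to 0.12 without 1 array), while Psmb9 changed by 0.03 ± 0.16 and B2m by 0.05 ± 0.20 (adjusted p = 0.93 and 0.91).

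Upstream windows of 3 of these genes are shown because they hold the core of an interferon-stimulated response element, GAAA followed by any 2 bases and GAAA, on either strand. They are the 250 bases before the RefSeq start in GRCm38.p6, with matches in capitals, here TTTC, any 2 bases and TTTC as read on the gene's own strand.
Ifit1 (chr19:34640639-34640888, plus strand): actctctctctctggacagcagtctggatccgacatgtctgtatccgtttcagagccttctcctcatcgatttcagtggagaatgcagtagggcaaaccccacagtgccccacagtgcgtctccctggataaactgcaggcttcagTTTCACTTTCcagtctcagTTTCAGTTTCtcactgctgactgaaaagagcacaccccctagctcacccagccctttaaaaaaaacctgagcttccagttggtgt
Gbp3 (chr3:142559794-142560043, plus strand): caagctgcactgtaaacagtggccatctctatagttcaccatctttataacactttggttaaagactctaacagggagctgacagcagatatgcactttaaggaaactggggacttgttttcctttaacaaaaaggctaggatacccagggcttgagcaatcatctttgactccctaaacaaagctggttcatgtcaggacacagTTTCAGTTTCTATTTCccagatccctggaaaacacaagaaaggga
Gbp5 (chr3:142496684-142496933, plus strand): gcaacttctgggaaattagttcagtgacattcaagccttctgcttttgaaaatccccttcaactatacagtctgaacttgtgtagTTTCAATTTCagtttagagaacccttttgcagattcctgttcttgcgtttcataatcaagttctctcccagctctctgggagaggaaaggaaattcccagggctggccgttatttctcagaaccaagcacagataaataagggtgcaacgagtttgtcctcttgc
Ifit1 has matches at -104 and -85, Gbp3 has overlapping ones at -45 and -39, and Gbp5 has 1 at -165. Of the 14 ISGF3-type genes that fell 9 had a window in the table, and 3 of these held the motif (Ifit1, Rsad2 and Stat2). Of the 7 interferon-γ targets that fell 6 had a window, and 4 held it (Gbp3, Gbp5, Gbp7 and Irgm1). Of all 27025 genes with a window 3.46% held it.

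**Figure D4:**
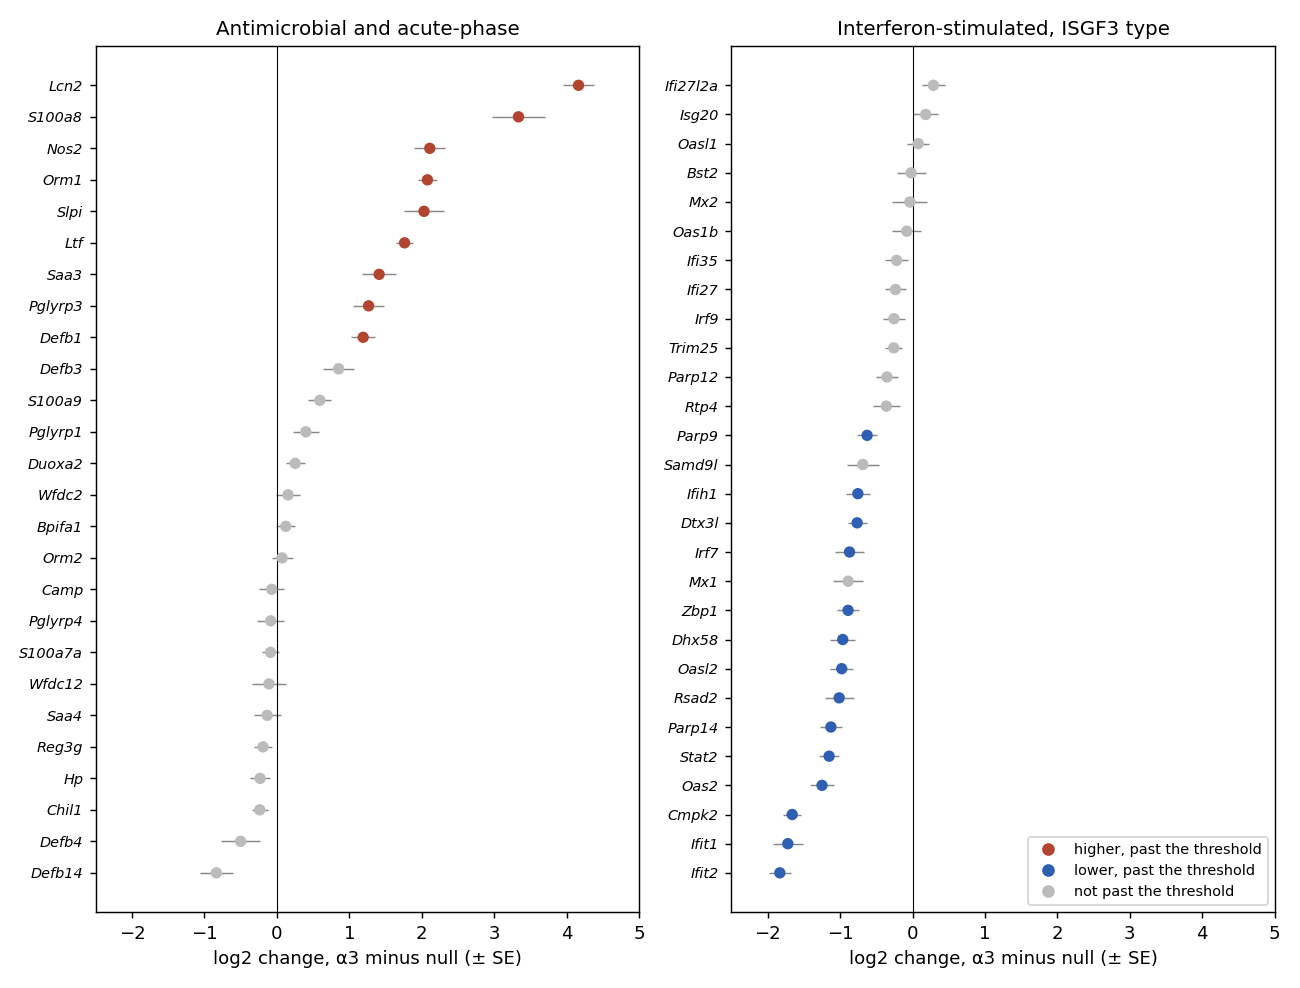
Change of each measured member of 2 lists (log2, α3 line minus null line, bars ± SE of the fit), the antimicrobial and acute-phase list left and the ISGF3-type list right. Of the first, 9 of 26 rose, up to 4.16 for Lcn2, and of the second 14 of 28 fell, down to -1.83 for Ifit2. Grey members did not pass.

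Prostaglandin synthesis showed lower genes at its start. Pla2g4a, the phospholipase that frees arachidonic acid, gave 2377 and 2013 in the α3 line, against 5256 and 5869 in the null line (-1.34 ± 0.15, adjusted p = 0.0033). Ptgs2, the inducible cyclooxygenase that uses it, gave 1558 and 1376 in the α3 line, against 3819.5 and 4187 in the null line (-1.44 ± 0.16, adjusted p = 0.0036). Downstream, Ptges, the inducible prostaglandin E synthase, rose by 0.69 ± 0.13 and the chaperone-linked Ptges3 fell by 0.99. Ptgr2, a reductase that inactivates prostaglandins, and the prostaglandin transporter Slco2a1 rose by 0.84 ± 0.16 and 0.79 ± 0.15. Alox5ap, which delivers arachidonic acid to 5-lipoxygenase, gave 98.8 and 82.6 in the α3 line, against 21.7 and 9.45 in the null line (1.78 ± 0.21), and the skin lipoxygenase Alox12b changed by -0.48 ± 0.11. The list thus had 4 rises and 4 falls of 30. Ptgs2 and Pla2g4a held. Alox5ap did not pass without α3 replicate 1 (adjusted p = 0.055), Ptges3 without either α3 array or null replicate 1 (up to 0.093), and Ptges, Ptgr2, Slco2a1 and Alox12b without any single one of the 4 (up to 0.18, 0.18, 0.16 and 0.22). With chromosomes centred the adjusted p of Ptges3, on chromosome 10, was 0.064.

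Terminal differentiation genes fell where they passed. Sprr1a, a precursor of the cornified envelope, gave 277 and 324 in the α3 line, against 1808 and 1918 in the null line (-2.57 ± 0.34, adjusted p = 0.0082), and Sbsn, suprabasin, gave 241 and 236 in the α3 line, against 767 and 775 in the null line (-1.63 ± 0.13, adjusted p = 9.7e-04). Sprr3 and the filaggrin-processing protease Asprv1 changed by -1.52 ± 0.29 and -1.39 ± 0.28, the calmodulin-like Calm4 by -1.25 ± 0.27 and dermokine (Dmkn) by -0.68 ± 0.14. Of 42 genes 6 fell and 0 rose, 14 and 1 at an unadjusted p under 0.05, and 36 lay below 0 with a median of -0.23. Among all expressed genes 60.9% lay below 0. Involucrin (Ivl) gave 195 and 157 in the α3 line, against 162 and 303 in the null line (-0.32 ± 0.28, adjusted p = 0.54) and Krt1 124 and 102 in the α3 line, against 144 and 146 in the null line (-0.33 ± 0.22, adjusted p = 0.42). Sbsn held. Sprr1a did not pass without α3 replicate 1 or either null array (adjusted p up to 0.072), nor Sprr3, Asprv1, Calm4 and Dmkn without any single one of the 4 (up to 0.17, 0.19, 0.19 and 0.22). With chromosomes centred the adjusted p of Dmkn was 0.054. Falls numbered 1 and 2 without α3 replicates 1 and 2, and 1 and 1 without null replicates 1 and 2. The Sprr genes have similar sequences and may share probes.

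The window before Sprr1a carries the AP-1-type motif of Mmp3 and Mmp13, and is shown since its gene moved the other way.
Sprr1a (chr3:92485882-92486131, minus strand): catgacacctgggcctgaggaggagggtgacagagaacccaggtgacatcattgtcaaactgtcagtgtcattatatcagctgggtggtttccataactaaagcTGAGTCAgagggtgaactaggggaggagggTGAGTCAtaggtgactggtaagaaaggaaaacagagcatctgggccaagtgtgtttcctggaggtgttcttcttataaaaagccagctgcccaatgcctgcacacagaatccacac
Its capitals are 2 matches of TGANTCA, at -146 and -116. Of the 6 differentiation genes that fell all had a window, and Sprr1a, Sbsn and Dmkn held the motif, against 7.82% of all genes with a window.

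Keratins and identity factors had few calls. Krt19, a keratin of simple epithelia and hair follicle stem cells, was 6.21 times higher, with 5709 and 6618 in the α3 line, against 846 and 1138 in the null line (2.63 ± 0.19, adjusted p = 6.1e-04), and held. Krt16, a keratin of activated epidermis, gave 692 and 608 in the α3 line, against 1619 and 1602 in the null line (-1.29 ± 0.16, adjusted p = 0.0068), and without α3 replicate 2 or either null array it did not pass (adjusted p up to 0.058). They were 1 rise and 1 fall of 14. Trp63, the transcription factor of stratified epithelia, gave 833 and 849 in the α3 line, against 1277 and 1440.3 in the null line (-0.68 ± 0.14, adjusted p = 0.038), the 1 call among 29 identity factors. At an unadjusted p under 0.05 in limma 11 of these factors were lower and 1 higher. The lowest change among the 29 was -1.23, which did not pass. Elf3 and Ovol1, epithelial transcription factors, fell by 0.83 and 0.77, and 2 of 21 genes of the list of mesenchymal transition regulators fell with 0 rises. At an unadjusted p under 0.05 that list had 9 lower and 1 higher. Snai2 gave 2439 and 2134 in the α3 line, against 2255 and 2441 in the null line (-0.04 ± 0.15, adjusted p = 0.9), and vimentin (Vim) had a change of 0.11 ± 0.13 (adjusted p = 0.65). Trp63, Elf3 and Ovol1 were lost whichever array was left out (adjusted p up to 0.2, 0.17 and 0.15), and Ovol1 with chromosomes centred (0.091).

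Cell cycle genes fell in a few members. Mki67, a marker of cycling cells, gave 280.0 and 334 in the α3 line, against 552 and 591 in the null line (-0.87 ± 0.15, adjusted p = 0.023), and the phosphatase Cdc25a gave 296 and 298 in the α3 line, against 533 and 527 in the null line (-0.80 ± 0.11, adjusted p = 0.0095). Top2a, Kif11 and Ttk, which act in mitosis, changed by -0.68 ± 0.15, -0.70 ± 0.12 and -0.59 ± 0.13. Of 39 genes 5 fell and 0 rose, 16 and 0 at an unadjusted p under 0.05, with a median of -0.29. Of 32 DNA replication genes 2 fell and 0 rose, 19 and 2 at that level, with a median of -0.44. They were Mcm5, of the replicative helicase (-0.98 ± 0.14), and the flap nuclease Fen1 (-0.79 ± 0.15). None of these 7 calls held, and without 1 array 0 of 39 cell cycle genes passed limma's test in each of the 4 cases. Mki67, Cdc25a, Top2a, Kif11, Ttk, Mcm5 and Fen1 reached adjusted p of 0.15, 0.084, 0.23, 0.14, 0.22, 0.094 and 0.16. Kif11 and Fen1, on chromosome 19, had adjusted p of 0.098 and 0.077 with chromosomes centred.

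Several p53 targets rose, in lines that share the p53-binding large T. Of 23 targets and CDK inhibitors 5 rose and 0 fell, 8 and 4 at an unadjusted p under 0.05, with a median of 0.05. Fas, a death receptor, gave 338 and 296 in the α3 line, against 92.5 and 97.5 in the null line (1.58 ± 0.12, adjusted p = 7.2e-04). Eda2r, a receptor of ectodysplasin, gave 1739.8 and 1753 in the α3 line, against 622 and 694 in the null line (1.39 ± 0.12, adjusted p = 0.0012), and the stress protein Trp53inp1 gave 1553 and 1696 in the α3 line, against 587 and 634 in the null line (1.39 ± 0.13, adjusted p = 0.0016). Zmat3 and Btg2 rose by 0.76 ± 0.13 and 0.75 ± 0.11. The CDK inhibitor p21 (Cdkn1a) gave 1968 and 1872 in the α3 line, against 1687 and 2025 in the null line (0.05 ± 0.16, adjusted p = 0.87), and Mdm2 changed by 0.47 ± 0.13 (adjusted p = 0.084). Fas, Eda2r and Trp53inp1 held, and rises in the list numbered 3 and 3 without α3 replicates 1 and 2, and 3 and 3 without null replicates 1 and 2. Zmat3 and Btg2 reached adjusted p of 0.13 and 0.11. Of 27 cell death genes 2 rose and 1 fell: Bcl2l11 (Bim) by 0.96 ± 0.14, Bcl2l1, which encodes Bcl-xL, by 0.83 ± 0.15, and the necroptosis effector Mlkl by -0.86 ± 0.13. Each was lost whichever array was left out (adjusted p up to 0.08, 0.13 and 0.1).

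Antioxidant enzymes were lower in several members. Gpx2, an epithelial glutathione peroxidase, gave 267 and 266 in the α3 line, against 1952 and 1836 in the null line (-2.76 ± 0.23, adjusted p = 0.0011). Gsta4, which clears lipid aldehydes, gave 3997 and 5289.8 in the α3 line, against 12039 and 12689.6 in the null line (-1.42 ± 0.19, adjusted p = 0.0082), and Nqo1, a quinone reductase, gave 943 and 786 in the α3 line, against 1681 and 2132 in the null line (-1.12 ± 0.19, adjusted p = 0.021). Catalase (Cat) and Gclc, the rate-limiting enzyme of glutathione synthesis, changed by -0.90 ± 0.17 and -0.74 ± 0.12, and the microsomal transferase Mgst1 rose by 1.01 ± 0.15. Of 34 genes 1 rose and 5 fell, while other NRF2 targets did not pass: Hmox1 changed by -0.32 ± 0.19 and Slc7a11 by -0.10 ± 0.15 (adjusted p = 0.36 and 0.74). Gpx2 held. Gsta4 did not pass without α3 replicate 1 or either null array (adjusted p up to 0.063), Mgst1 without either α3 array or null replicate 1 (0.088), nor Nqo1, Cat and Gclc without any single one of the 4 (0.13, 0.15 and 0.14). Falls numbered 1 and 2 without α3 replicates 1 and 2, and 1 and 1 without null replicates 1 and 2.

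Central metabolism changed in single enzymes. Of 30 fatty acid and lipid genes 2 rose and 2 fell. Scd1, the main desaturase of skin, gave 328 and 304 in the α3 line, against 874 and 990.2 in the null line (-1.51 ± 0.26, adjusted p = 0.02), and the elongase Elovl1 changed by -0.58 ± 0.13. Cpt1a, which admits fatty acids to mitochondria, rose by 0.82 ± 0.14 and Dgat2, of triglyceride synthesis, by 0.66 ± 0.14. All 4 were lost whichever array was left out (adjusted p up to 0.12, 0.2, 0.12 and 0.21). In the glycolysis and hypoxia list 2 rose and 5 fell of 31. The collagen-modifying enzymes Plod2 and P4ha2 rose by 0.96 ± 0.15 and 0.63 ± 0.14, whereas their relative P4ha1 changed by -0.64 ± 0.14. The oxygen sensors Egln3 and Egln1 changed by -1.18 ± 0.14 and -0.64 ± 0.12, the histone demethylase Kdm3a by -0.61 ± 0.11, and liver phosphofructokinase (Pfkl) by -0.85 ± 0.19. The glucose transporter Slc2a1 gave a change of -0.31 ± 0.23 (adjusted p = 0.47). Egln3 did not pass without α3 replicate 1 (adjusted p = 0.055), and Plod2, P4ha2, P4ha1, Pfkl, Egln1 and Kdm3a without any single one of the 4 (up to 0.12, 0.22, 0.23, 0.23, 0.19 and 0.16). With chromosomes centred P4ha1 and Pfkl, both on chromosome 10, had adjusted p of 0.36 and 0.19, P4ha2 0.064 and Egln1 0.067.

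Some metabolic lists gave 0 calls in limma's test. Of 22 cholesterol synthesis genes 0 passed, and 0 were higher and 1 lower at an unadjusted p under 0.05. Of 14 clock genes 0 passed, with 2 higher and 2 lower at that level, and of 25 oxidative phosphorylation genes 0 passed, with 3 higher and 1 lower. In the integrated stress and unfolded protein list 1 of 30 passed, the secreted Stc2 (0.76 ± 0.12, adjusted p up to 0.14 without 1 array), with 7 higher and 8 lower at an unadjusted p under 0.05. The chaperone Hspa5 changed by -0.18 ± 0.18 (adjusted p = 0.59). Of 13 carbonic anhydrases 2 rose and 0 fell, 2 and 1 at an unadjusted p under 0.05. The mitochondrial Car5b gave 2947 and 2473 in the α3 line, against 919 and 1119 in the null line (1.40 ± 0.16, adjusted p = 0.0041) and the cytosolic Car13 gave 367 and 307 in the α3 line, against 131 and 141 in the null line (1.21 ± 0.13, adjusted p = 0.0029), and both held. Of 10 measured genes of the prolactin family, placental hormones in normal tissue, 3 rose and 0 fell, 5 and 0 at an unadjusted p under 0.05. Prl7d1 gave 380.4 and 382 in the α3 line, against 90.5 and 77.2 in the null line (adjusted p = 0.0031) and held. Prl8a9 and Prl2a1 rose by 0.73 ± 0.16 and 0.72 ± 0.12, with adjusted p up to 0.21 and 0.12 without 1 array, and Prl8a9 0.064 with chromosomes centred. These genes have similar sequences and may share probes.

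Markers of other cell types gave 2 calls. Of 10 fibroblast markers Dpep1 fell by 0.60, and of 9 endothelial markers Flt1, which encodes a VEGF receptor, rose by 0.73 ± 0.13, with 103 and 102 in the α3 line, against 52.4 and 58.4 in the null line. Of 7 melanocyte and 10 leukocyte markers 0 passed limma's test, and 1 of each list was lower at an unadjusted p under 0.05. Dpep1 and Flt1 were lost whichever array was left out (adjusted p up to 0.19 and 0.15), and Dpep1 with chromosomes centred (0.075).

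**Figure D5:**
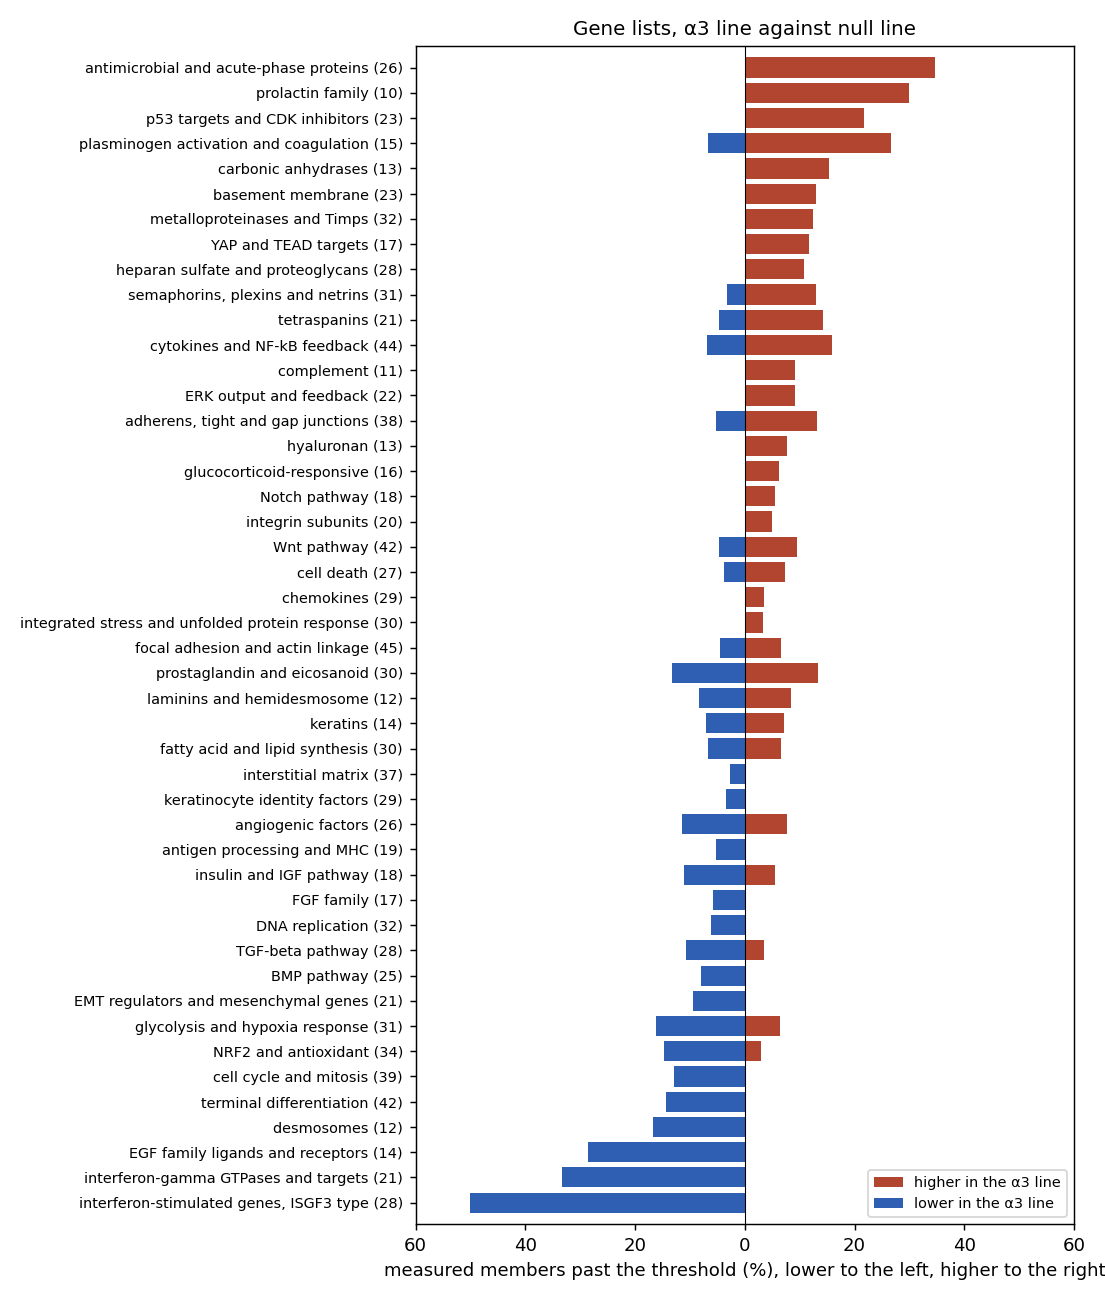
Share of the measured members of each list that passed, lower in the α3 line to the left (blue) and higher to the right (red), with the number of measured members in brackets. Lists without a call and all lists of cell type markers are not drawn. The antimicrobial list has the largest share of rises, 9 of 26, and the ISGF3-type list the largest share of falls, 14 of 28, over shares of 3.51% and 3.73% among all genes.

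The same change was then set beside that between the α3α9 and α9 lines, which share no array with it. Both changes were tested with 1 estimate of spread for each cluster, so their calls are not independent. The titles do not say whether the α3α9 line was made from the α3 line, and a shared line history was not tested. Of the 652 clusters higher in the α3 line 575 (88.2%) were also higher by sign with α9, against 47.5% of all clusters, and 353 passed there too. Of the 707 lower ones 567 (80.2%) had the same sign, against 52.5% of all clusters, and 201 passed. These are 54.1% and 28.4% of the calls without α9, and 28.1% and 33.7% of those with it. With α9 5.39% of all clusters passed higher and 2.56% lower, 7.95% together. The difference between the 2 changes passed in 139 of 23332 clusters (0.596%), 53 of them among the rises and 34 among the falls. At an unadjusted p under 0.05 it numbered 3501. In the ISGF3-type list 4 of 28 members had such a difference. So did 4 of 26 antimicrobial, 4 of 42 terminal differentiation and 3 of 44 cytokine list members. Those of the ISGF3-type list are given first. Ifit1 gave 4319.7 and 3586 in the α3α9 line, against 2567 and 3101 in the α9 line, a change of 0.48 ± 0.21 that did not pass (adjusted p = 0.24), and the difference between the changes was 2.20 ± 0.29 (adjusted p = 0.035). For Ifit2, Cmpk2 and Parp14 the differences were 2.18 ± 0.21, 2.28 ± 0.18 and 1.95 ± 0.21 (adjusted p = 0.014, 0.006 and 0.018). Parp14 rose with α9, by 0.82 ± 0.15 (adjusted p = 0.019). Gbp5 fell with α9 as well, by 1.38 (adjusted p = 0.011), and its difference of 0.60 ± 0.30 did not pass (adjusted p = 0.41).

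Mmp3 gave 61.9 and 32.3 in the α3α9 line, against 38.7 and 40.0 in the α9 line, and its change with α9 minus that without was -2.33 ± 0.30 (adjusted p = 0.028). S100a8 gave 246 and 179.9 in the α3α9 line, against 776 and 324 in the α9 line, a difference of -4.53 ± 0.51 (adjusted p = 0.02). The change of Sulf1 was -1.66 in the lines with α9, against 1.03 in those without it (adjusted p of the difference = 0.0026), and that of Itga2 was -1.39 with α9, against 1.58 without it (0.013). Dsc3, Krt19 and Cd81 changed by -2.52, 3.24 and 2.59 with α9, and the differences did not pass (adjusted p = 0.41, 0.34 and 0.31). Epgn gave 19.7 and 15.7 in the α3α9 line, against 217 and 203 in the α9 line, and Gpx2 gave 0.0954 and 11.5 in the α3α9 line, against 94.8 and 88.9 in the α9 line. The α3α9 arrays of both genes lay near or under the added 16, which sets the size of their change there. For Ptgs2 the change with α9 was -1.48 ± 0.16, and for Fas it was 1.25 ± 0.12. Sostdc1 fell in both cases, with a change of -3.16 with α9, against -6.58 without it, and the difference of 3.41 ± 0.21 passed (adjusted p = 0.0026). It gave 61.4 and 62.4 in the α3α9 line, against 711 and 653 in the α9 line. The α9 line thus started from a lower level than the null line (13030.4 and 14643), and the level with α3 was low in both cases. The differences of Sulf1 and Sostdc1 also passed without each of the 8 arrays in turn. Those of Ifit1, Ifit2, Cmpk2, Parp14, Mmp3, S100a8 and Itga2 did not, with adjusted p up to 0.14, 0.072, 0.058, 0.098, 0.14, 0.096 and 0.078, and each of these 7 was lost without null replicate 2.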

How the data were processed

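RNA of 8 samples, 2 from each of 4 lines, was measured on the Affymetrix Mouse Exon 1.0 ST array, from 1 µg of total RNA per the labels' protocols. The deposited tables hold 1 linear intensity for each transcript cluster on each array, from Affymetrix Expression Console and PLIER per the submitters' processing notes. The Affymetrix Exon Array Computational Tool is named in the series' own text. Their versions, filters and the genome build were not given in the sources used here. Arrays have no read depth.

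Samples were grouped by titles. Each array was scaled to a common median, and log2(intensity + 16) was tested in limma 3.58.1 (R 4.3.3, lmFit then eBayes), with 1 mean per line, 4 residual degrees of freedom and Benjamini-Hochberg adjustment over 23332 clusters. The main threshold was an adjusted p of 0.05. Names came from the platform annotation, 14996 clusters with 1 gene, 1019 with several and 7317 unlisted, and 14941 symbols were matched by Entrez number to RefSeq (GRCm38.p6). For 135 genes with several clusters, the one with the highest mean was used.

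The members, the 55 lists (1257 of 1518 symbols measured) and the tests were chosen with earlier results of these data known. Named genes were Itga3, Itga9 and Itgb1, up to 4 rises and 4 falls of each list that passed with arrays not overlapping, and the 25 largest rises and falls with predicted genes passed over. Other members, and those that did not pass, were chosen after their values were seen. On simulated data with 200 changed clusters, the fit of this comparison over 23332 clusters recovered 40% of 2-fold and 91% of 4-fold changes. Among its calls 4.38% were false. The simulation drew independent noise from the fitted spread, without shifts of chromosomes, and changed fewer clusters than the 1359 called here. Its rates therefore need not hold for these data. Alternatives were other scalings, pseudocounts, filters and eBayes options, the compared lines alone, the replicate number as a block, and leaving out each array, whose line then had 1 array assumed to vary like the others. Promoter windows came from RefSeq, and figures were drawn with matplotlib 3.10.9.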

Additional observations from a re-analysis of the deposited data

Results flagged for a closer look

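For 28 named genes the α3 change differed between the lines with α9 and those without it, by the test of the difference in limma over all 23332 clusters. Each value below is the change with α9 minus the change without it, on the log2 scale. Each array set holds 1 line per combination of subunits, so other differences between the lines cannot be told apart from α9, and the lines with α9 lack the re-analysis mark.

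Rises that were smaller or turned with α9 were those of S100a8 (-4.53), Itga2 (-2.97), Mctp1 (-2.93), Sulf1 (-2.69), Hsd11b1 (-2.38), Mmp3 (-2.33), Prl8a9 (-2.32), Mcpt8 (-2.28), Tnfrsf26 (-2.12), Glipr2 (-2.12), Tnip3 (-1.87), Acap1 (-1.75), Gimap9 (-1.72), Tfpi (-1.44) and Hyal1 (-1.09). The rise of Tns1 was larger (1.55). Falls that were smaller or turned were those of Sostdc1 (3.41), Cmpk2 (2.28), Ifit1 (2.20), Ifit2 (2.18), Rps4l (1.77), Tnfsf10 (1.69), Slit2 (1.60), Zfp358 (1.39) and Vegfd (1.23). Falls that were larger were those of Krt16 (-1.65), Dpep1 (-1.41) and Tmem159 (-1.37). Tmem159 lay under the added 16 on both arrays of the α3α9 and α3 lines, so its value is set by the added 16 and by its level in the α9 and null lines. Under 16 on both arrays also lay Mctp1 (13.4 and 13.3) and Gimap9 (7.19 and 10.3) in the α9 line. So did Tfpi (10.1 and 9.77) in the null line, and the sizes of these differences depend on the added 16 too. Of the 28 differences 4, those of Sostdc1, Sulf1, Mctp1 and Mcpt8, also passed without each of the 8 arrays in turn. Without null replicates 1 and 2, 5 and 4 passed, without α3 replicates 1 and 2, 6 and 7, without α9 replicates 1 and 2, 8 and 8, and without α3α9 replicates 1 and 2, 12 and 23. On the deposited intensities 9 passed. With 2 arrays a line, no test for single outlying arrays was possible.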

How the results depend on the processing

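The main counts were 652 higher, 707 lower and 139 with a difference between the changes with and without α9. On the deposited intensities they were 221, 82 and 20, and after quantile normalization 1046, 877 and 172. With a pseudocount of 1 they were 440, 400 and 32, and with 64 they were 969, 1352 and 482. Without the lowest 25% of clusters they were 890, 1134 and 366, with an intensity trend 852, 1113 and 343, and with robust estimates 633, 678 and 134. Over clusters with 1 gene alone they were 980, 1447 and 656. The compared lines alone gave 437 higher and 347 lower, and the difference could not be tested there. With each chromosome centred, chosen after seeing the data, they were 599, 576 and 122. Leaving out 1 array gave 186 to 707 higher, 100 to 818 lower and 8 to 157 for the difference. The cause was not tested in any of these cases.

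With the replicate number as a block the counts were 436, 353 and 55, and 150 of 180 named calls stayed past the threshold. Deviations of same-numbered arrays from their line means correlated between -0.198 and 0.0498, so the numbers did not pair the samples.

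Of the 1359 calls, 303 stayed past the threshold on the deposited intensities, 1313 after quantile normalization, 807 with a pseudocount of 1 and 711 with the compared lines alone. None changed sign under any of these alternatives. Of 180 named calls the alternatives without a left-out array kept 96 (deposited intensities) to 180 (quantile normalization), and leaving out 1 of the 4 compared arrays kept 88 to 96. In the α3 line 26 of the lower clusters, and in the null line 30 of the higher ones, lay under 16 on both arrays, where the size of a change depends on the added 16.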

Other observations

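Runs of 10 expressed genes in chromosome order that moved together were found, and are given as values chosen after they were seen. On chromosome 8 the run from Defb1 to Slc20a2, which holds the cell division gene Ckap2 and the mitochondrial transporter gene Slc25a15, had a median change of 1.10 with α9, against 1.07 without it, and 6 of its genes rose without α9. The run from Ctxn1 to Lig4 on the same chromosome, around Ccl25, had 0.99 with α9, against 1.05 without it, and 7 rose. On chromosome 10 the run from Hsp90b1 to Scyl2 had -0.38 with α9, against -0.67 without it, and 5 fell. The runs from Arg1 to Trmt11 and from Nemp1 to Stat2 on that chromosome had -0.01 and -0.14 with α9, against -0.65 and -0.64 without it, and 6 fell in each. On chromosome 19 the run from Ifit2 to Kif11 had 0.18 with α9, against -0.65 without it, and 6 fell.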
